A study of Rattus norvegicus with 6 samples.

Results

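Glutathione transferases of the mu class were followed in the renal cortex of rats given o-anisidine hydrochloride. The 6 genes Gstm1, Gstm2, Gstm3, Gstm4, Gstm5 and Gstm7 were chosen by name, with earlier results of these data known. Every probe whose transcript accession belongs to one of them in RefSeq's rat gene table was taken. This gave 8 probes of the 61657 on the array that were not controls: 2 each for Gstm3 and Gstm4, and 1 for each other gene. All 8 were among the 42036 probes kept for testing, which carried no outlier flag and, in one group or both, exceeded background on all 3 arrays.

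The animals were male Sprague-Dawley (Crl:CD(SD)) rats, bought at 5 weeks of age and kept on a basal diet. The 3 rats of the group labelled VC received water, and the 3 rats of the o-anisidine group received o-anisidine hydrochloride at 700 mg/kg/day, in both groups for 4 weeks. Total RNA from the cortex of each rat was hybridised to 1 Cy3 array, and the design text calls the rats of a group biological replicates. No genotype or transgene is named, and neither is the route by which the compound was dosed. The comparison asks which cortex transcripts differ between dosed and water-treated rats.

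Glutathione transferases join the thiol of glutathione to electrophilic compounds, which makes them more soluble and ready for export or for further processing to mercapturates. Enzymes of the mu class are cytosolic dimers of equal or different mu subunits, and their genes lie side by side as a cluster. Members of this class are among the genes raised by foreign compounds in rodent liver, in part through NRF2, the factor of the antioxidant response. o-Anisidine is an aromatic amine, a kind of compound that is oxidised in the body to reactive products.

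The RefSeq table (GRCr8) lists 9 genes of the family on chromosome 2, in the order Gstm5, Gstm6l, Gstm7, Gstm6, Gstm3l1, Gstm3, Gstm2, Gstm1 and Gstm4. The windows upstream of their starts differ in the short sequences they hold. In the 250 bases before the start of each of the 6 genes, both strands were searched for TGACNNNGC, the core of the antioxidant response element, for GCGTG, the core of the xenobiotic response element, for TGANTCA, the AP-1 site, and for TATAAA, the TATA box. The antioxidant core was found in 2 of the 6 windows, those of Gstm5 and Gstm7, and in 10.08% of 33469 rat windows of the same length. GCGTG was found for Gstm4 and Gstm5 (25.89% of all windows), TGANTCA for Gstm5 (6.34%), and TATAAA for Gstm1, Gstm3 and Gstm5 (12.93%). A match describes the letters and not binding.

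Of these windows, 3 are shown because of where their genes stand in the values that follow: Gstm1 had the largest difference between groups, Gstm2 the smallest p-value and Gstm5 the smallest difference. Each is written 5′ to 3′ on the strand of its gene, from RefSeq on GRCr8, with matches to any of these motifs in capitals. Gstm1 is on the minus strand at chr2:198343384-198343633, Gstm2 on the minus strand at chr2:198316918-198317167 and Gstm5 on the plus strand at chr2:198219519-198219768.
Gstm1: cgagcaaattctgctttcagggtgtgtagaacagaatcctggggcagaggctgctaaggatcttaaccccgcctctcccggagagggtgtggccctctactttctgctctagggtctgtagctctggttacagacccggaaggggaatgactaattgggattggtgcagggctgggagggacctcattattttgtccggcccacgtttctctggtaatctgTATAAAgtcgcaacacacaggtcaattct
Gstm2: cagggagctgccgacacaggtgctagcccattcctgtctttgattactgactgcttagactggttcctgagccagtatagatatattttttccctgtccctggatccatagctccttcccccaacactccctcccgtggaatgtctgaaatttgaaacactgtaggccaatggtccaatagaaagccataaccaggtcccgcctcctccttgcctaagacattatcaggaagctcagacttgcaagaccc
Gstm5: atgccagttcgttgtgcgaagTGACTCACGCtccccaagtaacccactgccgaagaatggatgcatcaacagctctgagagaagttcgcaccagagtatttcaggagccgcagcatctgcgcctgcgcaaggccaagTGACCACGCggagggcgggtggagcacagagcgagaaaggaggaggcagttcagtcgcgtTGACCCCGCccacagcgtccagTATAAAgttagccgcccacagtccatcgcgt

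In the window of Gstm1 the only match is TATAAA, which begins 29 bases before the start. The window of Gstm2 holds none of the 4 motifs. The window of Gstm5 holds the antioxidant core as TGACCACGC from 113 bases and as TGACCCCGC from 53 bases before the start, and the first of these overlaps a GCGTG match on the other strand. Its AP-1 match, TGACTCA, begins 229 bases before the start and overlaps another GCGTG match on the other strand.

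Levels are given as log2 of the processed signal relative to the 75th percentile of the same array, so that 0 is the signal that 75% of the probes do not exceed. That percentile lay between 923 and 1031 on the 6 arrays, 41670 to 43630 probes per array were well above background, and no spot was saturated. Probes differ in how strongly they bind, so levels were compared between arrays and not between genes. Precision is limited by having only 3 arrays in a group. Probe sequences were not used here, and how far a probe also binds the transcript of a similar mu gene was not tested.

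Mean signals were higher after o-anisidine at all 8 mu class probes, by 0.60 to 2.79 on the log2 scale at all but that of Gstm5, and none passed the test over all probes. The median log2 change of the 8 probes was 0.92, beside -0.0044 over all kept probes, of which 48.9% had a change above 0. With limma and Benjamini-Hochberg adjustment over 42036 probes, 0 of the 8 were called higher and 0 lower, where 19 probes in all (0.0452%) were called higher and 10 (0.0238%) lower. At an unadjusted p under 0.05, 4 of the 8 were higher, against 6.08% of all kept probes. For 5 of the 8, every treated array lay above every control array, against 9.17% of all kept probes. Both counts include the 2 Gstm3 probes, which were kept through the treated group alone. Among the 6 mu class probes well above background on all 6 arrays, the median was 0.80, 2 were higher at an unadjusted p under 0.05 and 3 did not overlap, against 6.06% and 9.30% of the 40030 probes detected on every array. The probes share the same 6 arrays and may share transcripts, so they are not independent of each other. Because the genes were chosen with earlier results of these data known, the counts and shares are a description only.

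Gstm1 encodes a major mu subunit of rat liver. Its processed signal was 2034, 468.8 and 2719 on VC 1, 2 and 3 and 16468, 7319 and 5887 on o-anisidine 1, 2 and 3, or 0.98, -1.07 and 1.46 against 4.10, 2.99 and 2.65 as log2 levels. All treated arrays stood above all control arrays, and the control arrays themselves were spread over 2.54 log2 units, with VC 2 far below the other controls. The mean log2 level was 0.46 ± 1.35 in controls and 3.24 ± 0.76 after o-anisidine (SD, n = 3 each). The difference was 6.90-fold, a log2 change of 2.79 (SE 0.72, 95% interval 1.03 to 4.55; limma, adjusted p = 0.254, unadjusted p = 0.00808). A log2 change at least this large was seen at 0.0262% of kept probes, and a control range at least this wide at 0.326%. Without VC 2 the log2 change of Gstm1 was 2.02, and without o-anisidine 1, the highest array, it was 2.36.

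Gstm2 encodes another mu subunit, which can pair with the Gstm1 subunit in mixed dimers. Its log2 level was 0.34, -0.02 and 0.64 on the controls and 1.21, 1.13 and 1.31 on the treated arrays. The groups did not overlap, and the treated arrays were closer together than the controls. Means were 0.32 ± 0.33 and 1.22 ± 0.09 (SD, n = 3 each), which is a 1.86-fold difference and a log2 change of 0.90 (SE 0.17, 95% interval 0.48 to 1.31; limma, adjusted p = 0.147, unadjusted p = 0.00178). This was the smallest p of the 8 probes.

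**Figure D1:**
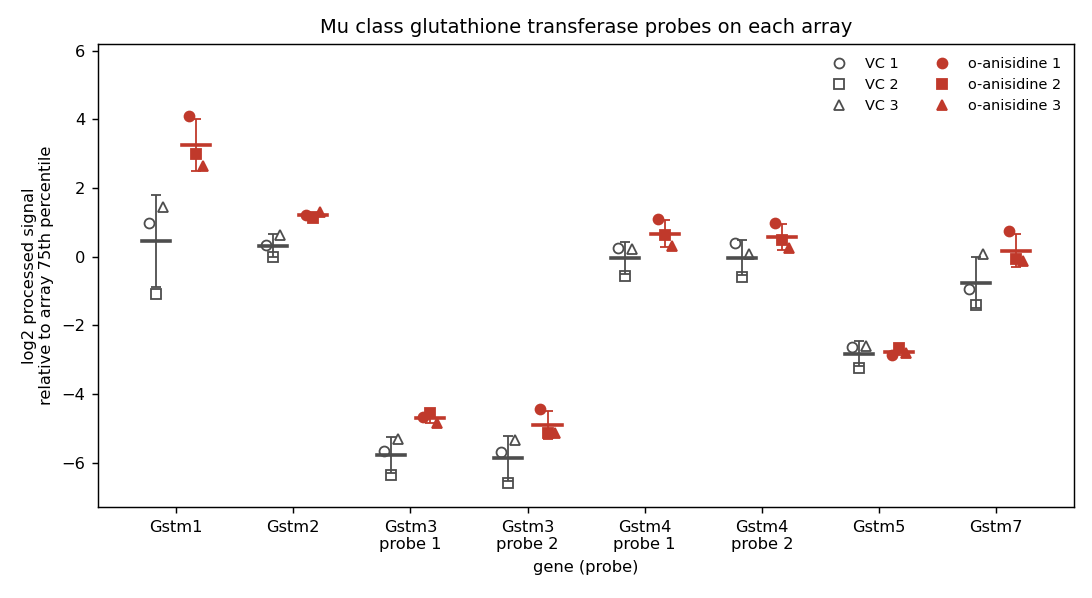
Log2 processed signal relative to the 75th percentile of the array (vertical axis) for the 8 mu class probes (horizontal axis), with open grey symbols for VC, filled red symbols for o-anisidine, 1 symbol shape per replicate, and the mean ± SD of each group; heights of different probes are not comparable. For Gstm1, Gstm2, both Gstm3 probes and probe 1 of Gstm4 every treated point lies above every control point, and VC 2 is the lowest control at all 8 probes.

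Gstm3 was measured by 2 probes, both dim. Each was well above background on 2 of the 3 control arrays and on all 3 treated arrays, so both were kept for testing through the treated group alone. Probe 1 had log2 levels of -5.67, -6.36 and -5.30 in controls and -4.67, -4.56 and -4.86 after o-anisidine. Probe 2 had -5.70, -6.60 and -5.33 against -4.42, -5.12 and -5.14. At both probes the treated arrays lay above the controls, and VC 2 was the lowest array of all.

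The fitted log2 change was 1.08 at probe 1 of Gstm3 (SE 0.27; limma, adjusted p = 0.237) and 0.98 at probe 2 (SE 0.37; limma, adjusted p = 0.394). These include VC 2, where neither probe was well above background, and no fold is given for that reason. Without VC 2 they were 0.79 and 0.62. With normexp background correction, which adds an offset of 50 to every signal and so compresses differences at dim probes, the changes over all 6 arrays were 0.43 and 0.26. The direction was the same with both treatments of background.

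Gstm4 was also measured by 2 probes, which gave similar values. Probe 1 read 0.26, -0.57 and 0.23 in controls and 1.09, 0.62 and 0.32 after o-anisidine, as log2 levels. Probe 2 read 0.41, -0.59 and 0.09 against 0.98, 0.48 and 0.25. The groups did not overlap at probe 1, by a narrow margin, and at probe 2 the array o-anisidine 3 lay below VC 1. The log2 changes of 0.70 (SE 0.29; limma, adjusted p = 0.426) and 0.60 (SE 0.30; limma, adjusted p = 0.495) are 1.63-fold and 1.52-fold differences. They were 0.43 and 0.32 without VC 2.

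Gstm7 varied more among the controls than Gstm2 or Gstm4 did. Its log2 level was -0.93, -1.40 and 0.08 on VC 1, 2 and 3 and 0.74, -0.07 and -0.13 on o-anisidine 1, 2 and 3. The highest control lay above 2 of the treated arrays. Means were -0.75 ± 0.75 and 0.18 ± 0.48 (SD, n = 3 each), a 1.91-fold difference and a log2 change of 0.93 (SE 0.42, 95% interval -0.09 to 1.96; limma, adjusted p = 0.454). Without VC 2 the log2 change of Gstm7 was 0.61.

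Gstm5, at the end of the cluster farthest from Gstm4, had nearly equal means. Its log2 level was -2.63, -3.24 and -2.59 in controls and -2.85, -2.67 and -2.81 after o-anisidine, well above background on every array. The treated arrays lay within the range of the controls. The log2 change was 0.04 (SE 0.19, 95% interval -0.41 to 0.49; limma, adjusted p = 0.948), an interval that runs from 0.753-fold to 1.41-fold. The sign turned to -0.17 without VC 2, to -0.012 without o-anisidine 2 and to -0.025 with normexp.

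**Figure D2:**
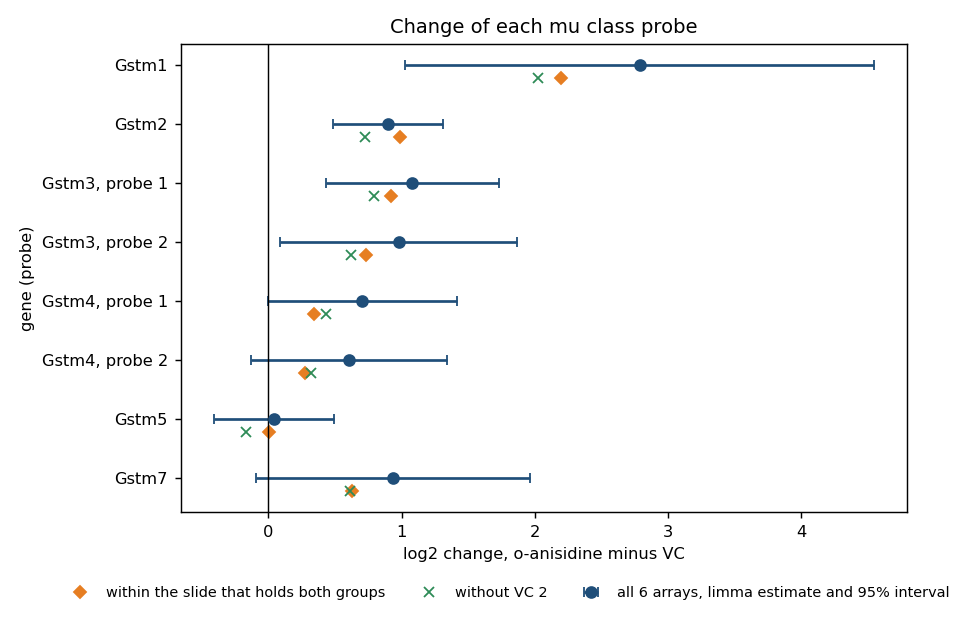
Log2 change of each probe, o-anisidine minus VC (horizontal axis), with the limma estimate and 95% interval over all 6 arrays, the value within the slide that holds both groups and the value without VC 2. The interval of Gstm1 runs from 1.03 to 4.55 and that of Gstm5 spans 0.

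The arrays lay on 2 slides, with all controls and o-anisidine 3 on slide 1 and o-anisidine 1 and 2 on slide 2, so slide and treatment can be told apart through 1 treated array only. Within slide 1, which also gives the value with slide as a block, the log2 changes were 2.19 for Gstm1, 0.99 for Gstm2, 0.92 and 0.73 for Gstm3, 0.34 and 0.28 for Gstm4, 0.0079 for Gstm5 and 0.63 for Gstm7. Both Gstm4 probes thus had less than 0.5 of a log2 unit within the slide, and Gstm2 had slightly more than over all arrays. With 1 treated array on that slide, these values are given without a test. Over both slides, the count of mu class probes higher at an unadjusted p under 0.05 was 3 without VC 2 and 3 without o-anisidine 1, beside 4.88% and 4.51% of all probes, and it was 4 or 5 without any other single array.

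VC 2 was the lowest control at 8 of 8 mu class probes, whereas it was the lowest control at 27.7% of all kept probes. Neither Gstm3 probe was well above background on VC 2, and the 8 probes stand for 6 related genes on the same arrays. The median deviation of the 8 probes from the mean of the controls was 0.18, -0.57 and 0.40 on VC 1, 2 and 3, and 1.11, 0.72 and 0.68 on o-anisidine 1, 2 and 3, where the medians over all kept probes lay between -0.03 and 0.02. Among treated rats, o-anisidine 1 was the highest at Gstm1, both Gstm4 probes, Gstm7 and probe 2 of Gstm3. Gstm1 deviated by -1.53 on VC 2 and by 3.64 on o-anisidine 1, the widest span of any member.

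**Figure D3:**
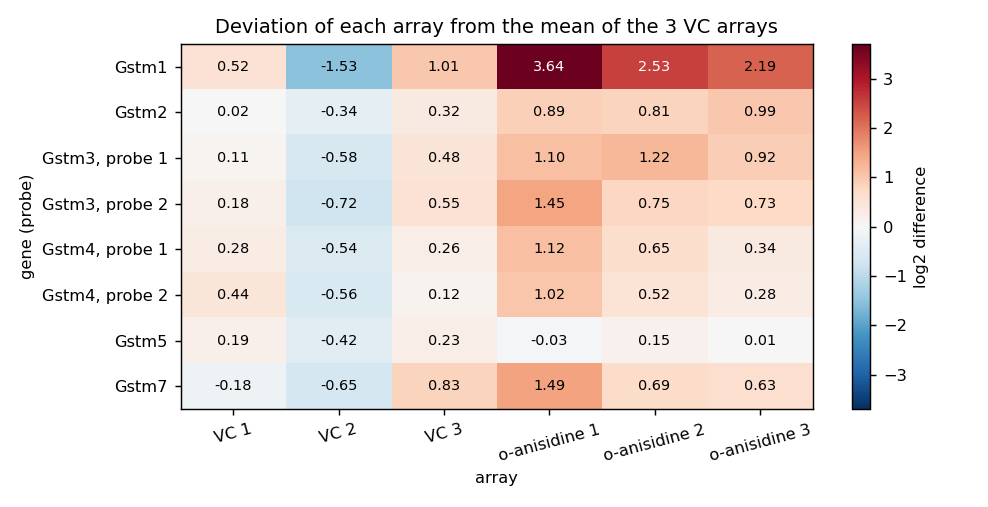
Log2 difference of each array from the mean of the 3 VC arrays at each of the 8 mu class probes, with the value written in each cell. VC 2 is negative at every probe, from -0.34 at Gstm2 to -1.53 at Gstm1, and every treated value is positive except that of Gstm5 on o-anisidine 1 (-0.03).

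Members were compared with each other within arrays, as the log2 ratio of 1 member's brightest kept probe to another's, for 15 pairs. A two-sided exact permutation test over 3 arrays against 3 cannot give a p under 0.1, so no pair could pass at 0.05, and the ratios are given as a description. The ratio of Gstm1 to each other member was higher after o-anisidine by 1.71 (against Gstm3) to 2.74 (against Gstm5) on the log2 scale, with no overlap between the groups in any of these 5 pairs (exact permutation p = 0.1, the smallest possible; adjusted p = 0.188 over the 15 pairs). All 5 pairs share the 1 Gstm1 probe, and how often other pairs of genes separate in this way was not tested. The 95% interval of the difference included 0 against Gstm2 (-0.196 to 3.975) and Gstm3 (-0.043 to 3.456). It lay above 0 against Gstm4 (0.53 to 3.64), Gstm5 (0.70 to 4.79) and Gstm7 (0.48 to 3.23). These intervals come from an ordinary linear model with equal variance in both groups. They are not adjusted over the 15 pairs, so no pair is called from them. The Gstm3 probe was not well above background on VC 2. With any single array left out, the 5 differences were at least 1.23. Using slide 1 alone they ran from 1.20 against Gstm2 to 2.18 against Gstm5.

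The ratios of Gstm2, Gstm3 and Gstm4 to Gstm5 also did not overlap between groups, at the same p. The ratio of Gstm2 to Gstm5 differed by 0.86 on the log2 scale (95% interval 0.50 to 1.21, unadjusted like those above). The SD of that ratio was 0.14 in controls and 0.17 after o-anisidine (n = 3 each). The difference stayed between 0.77 and 0.95 with any 1 array left out. The ratio of Gstm4 to Gstm5 differed by 0.66 (95% interval -0.05 to 1.38), by 0.42 without o-anisidine 1 and by 0.34 on slide 1. That of Gstm3 to Gstm5 differed by 1.04 (95% interval 0.65 to 1.43), or by 0.46 with normexp. It rests on a Gstm3 probe that was not well above background on VC 2. Of the other 7 pairs, Gstm2 and Gstm7 differed least, by -0.04 (-0.29 to 0.25 with 1 array left out), and Gstm5 and Gstm7 most, by -0.89 (-0.58 without o-anisidine 1).

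Further genes of the class were not members. Gstm6l had 1 kept probe, with a log2 level of -4.18, -4.06 and -3.54 in controls and -3.13, -3.55 and -3.77 after o-anisidine. Its log2 change was 0.44 (SE 0.23; limma, adjusted p = 0.504), and its lowest control was VC 1. The other probe of Gstm6l and the only probe of Gstm6 were not well above background on any array, and no probe was matched to Gstm3l1.

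Of 18 glutathione transferases of other classes, 15 were tested and 0 called in either direction, with a median log2 change of 0.23, beside 0.0037 over the 31087 genes tested, which are 12015 symbols and 19072 array identifiers with no matched symbol. In 5 of the 15 every treated array exceeded every control, as in 9.55% of those 31087. Gstp1, the pi class enzyme, had the smallest p of that list, with log2 levels of 6.16, 5.83 and 6.19 against 6.94, 6.85 and 6.73 (log2 change 0.78, SE 0.12; limma, adjusted p = 0.111). Mgst1, a transferase of membranes, had a log2 change of 0.28 (SE 0.09; limma, adjusted p = 0.342), and Gsta3, of the alpha class, 0.39 (SE 0.14; limma, adjusted p = 0.385). VC 2 was the lowest control for 7 of the 15.

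Of 12 genes of glutathione supply 11 were tested, with 0 called and a median log2 change of 0.17. Gsr, which regenerates glutathione from its disulfide, differed by 0.44 (SE 0.10; limma, adjusted p = 0.215), Chac1, which breaks glutathione down, by 0.31 (SE 0.09; limma, adjusted p = 0.315), and Oplah, which returns glutamate from oxoproline, by -0.33 (SE 0.12; limma, adjusted p = 0.384). All 11 genes of the mercapturate route were tested, with 0 called and a median of 0.14. Among them Acy3, an aminoacylase that removes the acetyl group of mercapturates, differed by 0.53 (SE 0.12; limma, adjusted p = 0.203), the exporter gene Abcc4 by 0.43 (SE 0.15; limma, adjusted p = 0.360) and Anpep, an ectopeptidase, by 0.46 (SE 0.22; limma, adjusted p = 0.478).

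Of 15 genes of the NRF2 pathway, all were tested and 0 called, with a median log2 change of 0.34. The change was above 0 for 13 of them, beside 15811 of all 31087 genes tested. Every treated array exceeded every control for 5 of the 15 and lay below every control for 1, beside 2970 and 2760 of the 31087. Srxn1, a sulfiredoxin, differed by 1.17 (SE 0.16; limma, adjusted p = 0.0955), Akr7a3, an aldehyde reductase, by 0.53 (SE 0.09; limma, adjusted p = 0.126) and Tkt, a transketolase, by 0.36 (SE 0.09; limma, adjusted p = 0.248). Of 9 genes of the aryl hydrocarbon receptor pathway 6 were tested, with a median of -0.01, and Cyp1a1 alone was called. Cyp1a1, a monooxygenase, was not well above background on VC 1, 2 or 3 and was at least 23.8-fold higher after o-anisidine (limma, adjusted p = 2.02e-06). For that fold each control array was set at its lowest signal flagged as well above background, while the adjusted p rests on the measured values. Ugt1a6, a glucuronosyltransferase, differed by 0.48 (SE 0.09; limma, adjusted p = 0.144) and Ahrr, the repressor of the receptor, by -0.90 (SE 0.29; limma, adjusted p = 0.342).

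**Figure D4:**
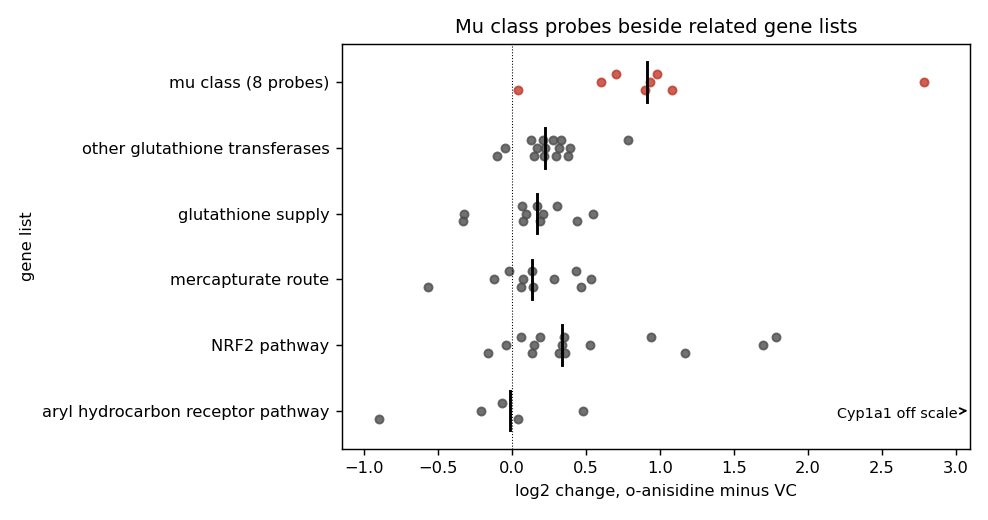
Log2 change, o-anisidine minus VC, of the 8 mu class probes and of the tested genes of 5 related lists, 1 point per probe or gene, with the median of each list marked; the fitted value of Cyp1a1 is off the scale. The mu class median is 0.92 and the medians of the lists lie between -0.01 and 0.34.

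The samples carried the markers of renal cortex. All 11 proximal tubule markers were tested, among them Slc34a1, Lrp2 and Slc22a6, with log2 changes from -0.20 to 0.16 and a summed linear level, relative to the 75th percentile, of 2603 to 2968 in controls and 2536 to 3168 after o-anisidine. Of 6 red cell markers 5 were tested, 2 of them called higher, and their summed level was 544 to 743 in controls and 1079 to 1297 after treatment. All 6 markers of injured tubules were tested, with 0 called, and their sum was 17.6 to 22 against 29.1 to 116. A linear sum gives most weight to the brightest markers. The log2 change was above 0 for 5 of the 6, beside 15811 of all 31087 genes tested, and -0.05 for Vim. Havcr1 and Vim overlapped between groups. The median deviation of the injury markers was 2.51, 0.34 and 1.37 on o-anisidine 1, 2 and 3 and between -0.08 and 0.06 on the controls. The 10 collecting duct markers summed to 342 to 374 against 229 to 323, and 5 of 8 leukocyte markers to 2.98 to 3.81 against 2.46 to 3.64. Of 6 markers of adipose, adrenal or liver tissue, Alb, Apoa1, Star and Cyp11b1 were not well above background and Plin1 was not matched. The adipose marker Adipoq was tested, with log2 levels of 0.42, -0.11 and -0.32 in controls and -0.13, 0.19 and 0.10 after o-anisidine. In tissue RNA, more cells of a type and more RNA per cell cannot be told apart, and the part of red cells or injured tubules in the mu class values was not tested.

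The genes most like each member were found by the root mean square difference of centred log2 values over the 6 arrays, among 12008 genes with a symbol outside the class. For Gstm1 the closest was Krt19, a keratin of simple epithelia that is also in the list of injured tubules, at a root mean square difference of 0.609. Its log2 levels were -2.86, -3.39 and -2.83 in controls and 0.52, -0.22 and -0.75 after o-anisidine. As with Gstm1, VC 2 was the lowest and o-anisidine 1 the highest array, but the gene was picked for such likeness. RT1-M2, Cd52, Grap2 and Rhd followed at 0.747 to 0.875, and RT1-M2 and Cd52 had the same lowest and highest arrays. Cd52 (log2 change 2.12, SE 0.17; limma, adjusted p = 0.0388) and Rhd (2.61, SE 0.12; limma, adjusted p = 0.00605) were called higher. Krt19 was not called (limma, adjusted p = 0.0878).

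For Gstm2 the closest genes were H2bu1 (0.0938), Tbx1 (0.124), Spetex2f (0.129), Hist3h2ba (0.144) and Sult1a1 (0.147), the last of these a sulfotransferase of phenols with log2 levels of 2.46, 2.01 and 2.94 in controls and 3.34, 3.14 and 3.73 after o-anisidine. C14h7orf57, Trpv6, Ccl21, H2bu1 and Spetex2f were closest to Gstm3, at 0.197 to 0.243, and Trpv6, Map3k7cl, Hcn4, Aloxe3 and Myadml2 to Gstm4, at 0.173 to 0.209. Pcgf6l1, Gnat2, Smok2a, C14h7orf57 and Slc43a3 were closest to Gstm7, at 0.227 to 0.300. Among the members themselves, Gstm2 and Gstm3 were 0.207 apart, Gstm3 and Gstm4 0.296 and Gstm2 and Gstm4 0.304. Gstm1 was 1.05 (Gstm7) to 1.56 (Gstm5) from the other members, farther than from any of the genes named as closest to it. No closest genes were sought for Gstm5, which had an SD over the 6 arrays of 0.24, under the minimum of 0.5 set for that.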

How the data were processed

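Renal cortex RNA of 6 rats was measured on 1 single-colour array each, and samples were grouped by their titles. The deposited intensity values are, per the file headers, spot signals from Feature Extraction 10.7.1.1 after background subtraction and detrending within the array; version 10.7 of Agilent Feature Extraction is named in the submitters' processing notes. The array design was annotated on rn4, per the file headers, so no probe position is given.

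Control spots and 16 probes with an outlier flag were left out, and log2 was taken of each signal over the array's 75th percentile. Of 61657 probes, 27460 matched a RefSeq symbol through their accession. Groups were compared probe by probe with limma 3.58.1 (a two-sided moderated test from lmFit and eBayes) in R 4.3.3 over 42036 kept probes, with Benjamini-Hochberg adjustment at 0.05 and 4 residual and 2.13 prior degrees of freedom. In lists, a gene is its kept probe with the highest mean. Named genes are all members, the 3 of smallest p and any called gene of each pathway list, and the 5 nearest patterns of each member; the cell type markers named are examples. The members and lists were chosen with earlier results of these data known. On simulated data the fit was checked for returning the log2 changes that had been added, and no error rate or power is taken from that. The closing section gives the effect of 17 alternatives.

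Each column of the authors' deposited intensity table equals processed signals over the 75th percentile, but those of a scanner file with another replicate number in its group, in the same rotation in both groups. Replicate numbers follow the scanner files, and which numbering is right is unknown.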

Additional observations from a re-analysis of the deposited data

How the results depend on the processing

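Under 17 alternatives (2 scalings, normexp background correction, 2 filters on dim probes, another variance model, 1 probe a gene, 2 treatments of slide, the replicate block, the authors' table and each of 6 arrays left out), 0 mu class probes were called higher and 0 lower. Of 132 values of single probes, 129 kept their direction. The exceptions were all at Gstm5, with -0.025 under normexp and -0.17 and -0.012 among values of -0.17 to 0.16 with 1 array left out. Many of the 132 values could not turn. The filters, the variance model, 1 probe a gene and the replicate block leave the log2 change of a probe as it was. The 2 treatments of slide give the same change as each other, and the authors' table holds the same signals. Differences between members turned under normexp, with 0.29 for Gstm2 minus Gstm3, -0.25 for Gstm3 minus Gstm4 and -0.45 for Gstm3 minus Gstm7; the cause was not tested. The log2 change of Gstm1 lay between 2.02 and 3.29 (limma, adjusted p between 0.135 and 0.598), and that of Gstm2 between 0.73 and 1.06 (limma, adjusted p between 0.0828 and 0.388). Asking for all 6 arrays well above background removes Gstm3, so it has no value there.

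Over all probes, higher and lower calls numbered 114 and 31 with normexp, 114 and 32 with trend and robust variance, and 4 and 6 with no filter. Lower calls numbered 6 with all 6 arrays well above background, and higher calls 11 with 1 probe a gene. Calls numbered 3 and 1 with slide as a block, 1 and 1 within slide 1, where the lone treated array is assumed to vary like the controls, and 2 to 17 and 1 to 5 with 1 array left out. The replicate block gave 1 and 0. Under it 6 of the 8 mu class probes were higher at an unadjusted p under 0.05, against 5.76% of all probes. With slide as a block 1 of the 8 was, against 4.35%. Deviations of same-numbered arrays from their group means correlated at 0.0120, 0.0887 and 0.0069 over probes, so the numbers were not treated as pairs.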

Other observations

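Of the 10 protein-coding genes that flank the mu class cluster, 5 on each side in the order of the RefSeq table, 9 were on the array and 8 were tested, with 0 called by limma, 4 above 0 and 4 below, and log2 changes from -0.29 to 1.90. At an unadjusted p under 0.05, 2 of the 8 were higher, Eps8l3 and Gnat2, against 6.08% of all kept probes. Eps8l3, which lies next to Gstm5, had log2 levels of -5.23, -4.90 and -6.72 in controls and -3.57, -3.81 and -3.77 after o-anisidine (log2 change 1.90, SE 0.46; limma, adjusted p = 0.227). It was well above background on 2 of 3 control arrays and so was kept through the treated group alone, its lowest control was VC 3, and it was singled out after its values were seen. Gnat2, beyond Gstm4 and among the genes closest to Gstm7, had log2 levels of -3.59, -4.19 and -2.94 against -2.63, -3.01 and -2.71 (log2 change 0.79, SE 0.31; limma, adjusted p = 0.412). Ampd2, next to Gstm4, differed by -0.01 (SE 0.10).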
